A study of Mus musculus with 8 samples.

Results

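The genes described here encode the machinery with which RNA polymerase II begins transcription. They are the 80 protein-coding genes of GENCODE release M21 whose symbol is Tbp or begins with Taf, Gtf2a, Gtf2b, Gtf2e, Gtf2f, Gtf2h, Polr2 or Med followed by a number or subunit letter, out of 21951 protein-coding genes. The rule uses symbols and no measured value. Capped 5′ ends of nuclear RNA were mapped by CAGE-seq in mouse embryonic stem cells (mESCs) of the line E14. The wild-type E14 set merged 3 libraries, and double knockout (DKO) clones lacking Pwwp2a and Pwwp2b gave the other sets, clone A1 with 2 libraries and clone C7 with 3. PWWP2A/B reads a histone mark of transcribed gene bodies and brings histone deacetylases to it, and the comparison asked where transcription starts once it is lost.

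Each DKO group is 1 clone, so a difference shared by A1 and C7 is the most that can be set apart from clonal variation. Both clones are compared with the same merged E14 set. A change shared by both clones therefore cannot be told apart from error in that set. All libraries of a line had been merged before the deposited clusters were made. The values below therefore have no replicate error, no test was run, and the 95% Wilson intervals given for shares cover counting error only. The unit of measurement is the tag cluster, a run of nearby transcription start sites (TSSs) on 1 strand, with its first and last base, its dominant TSS (the base with the strongest signal) and its interquantile width, the stretch between quantiles 0.1 and 0.9 of its signal. Every score in the deposited cluster file is 0, so the data used here hold positions and widths and no expression level. The E14 set holds 32857 clusters, the A1 set 33005 and the C7 set 32870. The read depth behind each cluster is unknown here.

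The general transcription factors TFIIA, TFIIB, TFIID, TFIIE, TFIIF and TFIIH assemble with polymerase II on a promoter. TFIID, made of TBP and its TAFs, recognizes core promoter DNA, TFIIB joins it to the polymerase, and TFIIH opens the DNA. Mediator links enhancer-bound activators to this assembly, and its kinase module binds reversibly to the core.

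By role, 17 of the genes encode TBP and TFIID TAFs, 13 encode the other general factors, 13 encode polymerase II subunits or the associated Polr2m, 26 encode core Mediator subunits and 4 the Mediator kinase module. The remaining 7 carry a Taf name but belong elsewhere. Taf1a, Taf1b, Taf1c and Taf1d act with polymerase I, Taf5l and Taf6l belong to the SAGA coactivator, and Taf15 is an RNA-binding protein. TFIIH and kinase module genes with other names, such as Ercc3 and Cdk8, are counted in a separate list below.

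The labels were checked first. Pwwp2a (chromosome 11, 43681998 to 43721491, plus strand) had 1 promoter and 1 intronic cluster in E14, A1 and C7 alike. Pwwp2b had no cluster in any line, so neither gene separates the DKO clones from E14 in these positions. Promoter clusters of Pou5f1, Nanog, Sox2, Zfp42, Esrrb and Klf4, which mark embryonic stem cells, were present in every line. Of 5 genes used as markers of differentiated cells, Afp, Gata4, Gata6 and T had no cluster in any line, and Sox17 had 1 promoter cluster in each.

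The promoters of these genes are shown first by the sequence around the dominant TSS in E14, for genes with several promoter clusters that of the cluster with the largest interquantile width, which need not be the strongest. Each stretch runs from 40 bases before the TSS to 9 after it on the strand of the gene, in mm10 coordinates. The bases were read from RefSeq promoter windows of GRCm38.p6 joined with GENCODE transcripts. Capitals mark the base before the TSS, the TSS itself and any TATAAA or ATAAAA 40 to 20 bases upstream. The set holds narrow promoters (Gtf2b, Taf13 and Med21), wide ones (Gtf2a1 and Taf1), and the genes of TBP and the largest polymerase subunit.
Gtf2b (chr3:142765186-142765235, plus strand): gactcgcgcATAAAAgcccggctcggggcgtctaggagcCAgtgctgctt
Taf13 (chr3:108571660-108571709, plus strand): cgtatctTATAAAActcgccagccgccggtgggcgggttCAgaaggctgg
Med21 (chr6:146642539-146642588, plus strand): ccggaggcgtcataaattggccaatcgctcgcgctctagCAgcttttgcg
Gtf2a1 (chr12:91589951-91590000, minus strand): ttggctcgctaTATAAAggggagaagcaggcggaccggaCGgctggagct
Taf1 (chrX:101532728-101532777, plus strand): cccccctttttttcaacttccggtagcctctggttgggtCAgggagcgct
Tbp (chr17:15499875-15499924, plus strand): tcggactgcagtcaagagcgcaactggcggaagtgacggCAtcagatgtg
Polr2a (chr11:69758525-69758574, minus strand): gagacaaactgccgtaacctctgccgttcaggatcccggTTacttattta

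Nearly all of the genes started transcription at an annotated promoter in each of the 3 lines. Nearly all cluster bounds are shared between the lines (below), so their agreement in presence is not counted as independent. A cluster counted as a promoter cluster when an annotated transcript of its strand began within 500 bp of the dominant TSS, and otherwise as exonic or intronic. In each line 78 of 80 genes had a cluster and 77 had a promoter cluster, 96.2% (89.5 to 98.7%). Among all protein-coding genes the share in E14 was 50.9%. The high share is not particular to these genes. In the gene lists compared below, it was 97.2% for other polymerase II genes and 100% for polymerase I and III subunit genes. For proteasome subunit genes it was 90.0%. The genes held 172 clusters in E14 and in C7 and 170 in A1. Of these, 128 in E14, 127 in A1 and 128 in C7 were promoter clusters. A single promoter cluster served 49 of the 77 genes in every line, 63.6% in E14 against 61.6% of all protein-coding genes with one.

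The exceptions were few. Gtf2a1l (chromosome 17, 88668660 to 88715152), a TFIIA subunit gene known for its expression in male germ cells, had no cluster in any line. The same held for Med12l (chromosome 3, 59005825 to 59318682), the paralog of Med12 in the kinase module. Med13, on the minus strand of chromosome 11 from 86267033 to 86357602, had 3 exonic clusters and no promoter cluster. A cluster from 86358242 to 86358343 lay 711 bp upstream of its annotated start in E14 and A1 and 690 bp upstream in C7 by the dominant TSS, outside the 500 bp allowed. Its interquantile width was 63 bp in E14, 61 bp in A1 and 62 bp in C7.

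Tbp, on chromosome 17 from 15499888 to 15528379, had 4 promoter clusters in each line. The first, from 15499915 to 15499978, had its dominant TSS at 15499915, 27 bp inside the annotated gene, with a width of 36 bp in E14, 37 bp in A1 and 36 bp in C7. The other 3 lay 3225 to 4442 bp into the gene in E14, each near the start of 1 further Tbp transcript, and none was wider than 7 bp. Polr2a, the gene of the catalytic subunit (minus strand of chromosome 11, 69733997 to 69758637), had 3 promoter clusters whose widths in E14 were 4, 15 and 3 bp. The same widths were found in A1 and C7. Its 15 bp cluster, from 69758534 to 69758548, had its dominant TSS 103 bp inside the gene in every line.

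Gtf2b encodes TFIIB and lies on chromosome 3 from 142765045 to 142783606. It had a single cluster of 6 bases, from 142765222 to 142765227, with the dominant TSS at 142765226 and an interquantile width of 2 bp in E14, A1 and C7. No other gene of the 77 had so narrow a main promoter. Taf1, the gene of the largest TFIID subunit, on chromosome X from 101532734 to 101601789, was at the other end. Its cluster from 101532731 to 101532882 was 100 bp wide between quantiles in E14, and 102 bp in both clones, with the dominant TSS at 101532768 throughout.

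Med1, whose product contacts nuclear receptors, lies on the minus strand of chromosome 11 from 98152154 to 98193293. Its 2 promoter clusters had widths of 18 and 9 bp in every line, and the dominant TSSs stayed at 98193276 and 98193240. Med12, the kinase module subunit that activates the kinase, lies on chromosome X from 101274030 to 101297465. Its main cluster, from 101274029 to 101274173, was 68 bp wide in E14, 73 bp in A1 and 67 bp in C7. A second cluster was 26 bp wide in all lines.

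The width of a promoter cluster separates sharp initiation, at a few bases, from dispersed initiation. For each gene the promoter cluster with the largest interquantile width in E14 was taken as the main promoter and followed into the clones. The median over the 77 genes was 32.0 bp in E14 (quartiles 24.0 and 44.0), 33.0 bp in A1 and 32.0 bp in C7. All 11168 protein-coding genes with a promoter cluster in E14 had the same median of 32.0 bp, with quartiles of 19 and 46. By role, the E14 median was 26 bp for TFIID, 38.5 bp for the other general factors, 34.0 bp for polymerase II and 30.5 bp for core Mediator. Within each of these groups the widths ran from 15 bp or less to 64 bp or more. The 7 Taf genes outside TFIID ran from 7 to 67 bp, the last being a Taf1d cluster 10147 bp into the gene.

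**Figure D1:**
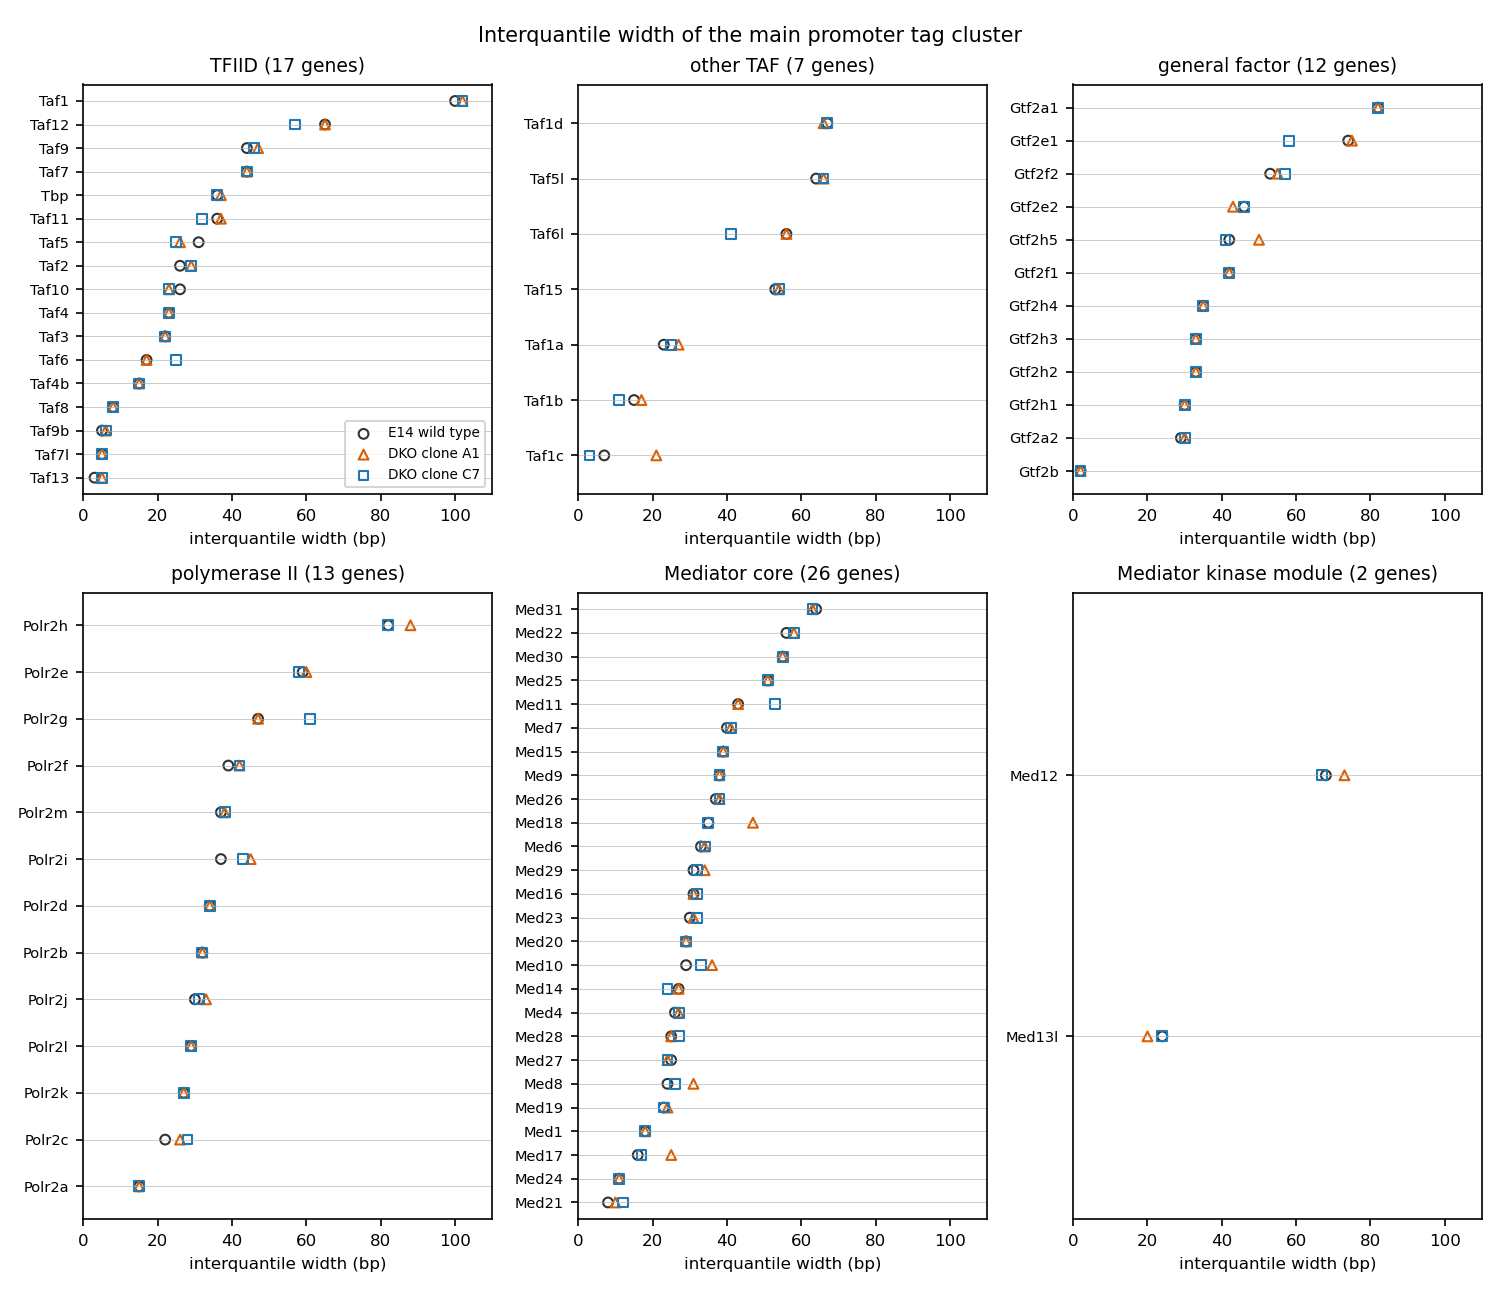
Interquantile width in bp of the main promoter cluster of each gene, by role, in E14 (circles) and DKO clones A1 (triangles) and C7 (squares). Genes are ordered by width in E14, from 2 bp at Gtf2b to 100 bp at Taf1, and the symbols of the 3 lines lie close together at most genes.

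The widest main promoters after Taf1 were those of Gtf2a1, which encodes the large TFIIA subunit precursor, and Polr2h, a subunit shared by all 3 nuclear polymerases. Both were 82 bp wide in E14. Gtf2a1 stayed at 82 bp in A1 and C7, while Polr2h measured 88 bp in A1 and 82 bp in C7. Gtf2e1, a TFIIE subunit gene, was 74 bp in E14, 75 bp in A1 and 58 bp in C7. With Med12 these 5 promoters were each wider than at least 94.3% of protein-coding main promoters.

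At the narrow end Gtf2b was followed by Taf13, at 3 bp in E14 and 5 bp in both clones. Taf7l and Taf9b, paralogs of TFIID subunits encoded on chromosome X, measured 5 bp in E14, and 5 and 6 bp respectively in both clones. Taf1c, of the polymerase I factor SL1, measured 7 bp in E14, 21 bp in A1 and 3 bp in C7, so that the clones lay on opposite sides of E14. Taf8 and Med21 at 8 bp completed the 7 main promoters of at most 10 bp, 9.09% of the 77 against 13.5% of all protein-coding genes. In A1 and in C7 it was 6 of 77.

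Sharp promoters are known for the TATA box, which TBP binds. TATAAA, on the gene's strand and starting 40 to 20 bases before the dominant TSS, was found in 2 of the 69 main promoters with sequence, 2.90%, against 1.48% of 9535 protein-coding main promoters. These were Taf13, where it starts 33 bases upstream, and Gtf2a1, where it starts 29 bases upstream of the dominant TSS in a cluster 82 bp wide. At Gtf2b the letters ATAAAA start 31 bases upstream. This variant was looked for after the Gtf2b sequence had been seen, and it overlaps TATAAA at Taf13. Of all protein-coding main promoters, 9.93% of those of at most 10 bp and 0.252% of wider ones held TATAAA in this window, while ATAAAA was in 6.95% and 0.180%. TATAAA was in 1 of the 7 narrow promoters described here and ATAAAA in 2. A match in these letters is a description and not a binding site.

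Other promoter elements were counted in RefSeq windows of 300 bases around a gene's start, most of them upstream of it, on both strands. A window was held for 69 of the 80 genes. Gtf2e2, Med8, Med23, Med24, Med30, Polr2d, Polr2g, Polr2k, Taf2, Taf4b and Taf7 had none. GGGCGG, the GC box, was in 71.0% of the 69 (59.4 to 80.4%), against 51.0% of 16522 protein-coding genes with a window and 71.9% of the 8730 that also had a promoter cluster in E14. CCAAT was in 36.2%, against 42.1% and 44.5%. CCGGAAG, the core of ETS factor sites, was in 34.8% (24.6 to 46.6%), against 13.4% and 22.1%. AAGATGG, bound by YY1, was in 15.9% (9.14 to 26.3%), against 7.26% and 8.92%. TATAAA anywhere in the window was in 17.4%, against 14.3% and 8.12%. The NRF1 palindrome was in none of the 69 (0 to 5.27%), against 1.53% and 2.63%. The comparison with genes that had a promoter cluster was added after the data were seen. The median window held 22 CpG dinucleotides, as did that of the protein-coding genes with a promoter cluster, against 14 over all.

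Most main promoters initiated at the classical pyrimidine and purine pair, a C or T followed by an A or G at the TSS. It was present at 60 of 73 main promoters with sequence, 82.2% (71.9 to 89.3%), and at 82.9% of those of all protein-coding genes. The 13 without it were Polr2a, Polr2i, Gtf2h4, Med15, Med18, and 8 Taf genes (Taf1a, Taf1d, Taf3, Taf5, Taf6l, Taf8, Taf9b and Taf11).

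Some of the genes had a start of transcription on the opposite strand close by. An opposite-strand cluster had its dominant TSS within 1000 bp upstream of the main TSS at 24 of 77 genes in E14, 31.2% (21.9 to 42.2%), against 23.6% of all protein-coding genes, and the median distance was 176 bp against 185 bp. At 14 of the 77, 18.2% (11.2 to 28.2%), the cluster lay at the start of a coding gene, against 13.7% of all protein-coding genes, and some of the others were intergenic or exonic on their own strand. Both background shares lay inside the intervals. The closest pair was Taf5l with Urb2, 75 bp apart, and other close coding pairs were Gtf2h3 with Eif2b1 at 94 bp and Gtf2h5 with Serac1 at 96 bp. Med29 faced Paf1, which encodes an elongation factor, 310 bp away. All 24 opposite-strand clusters were present in A1 and C7, which share nearly all cluster bounds with E14.

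Inside the genes, away from annotated starts, E14 had 34 exonic and 10 intronic clusters. They fell in 13 of the 80 genes. These counts depended on the definitions, with 52 exonic clusters under a promoter window of 100 bp, and 22 exonic and 6 intronic clusters when an interquantile width of at least 3 bp was required. Exonic clusters were 19.8% of all clusters of these genes (14.5 to 26.4%), against 16.2% over all protein-coding genes, and intronic ones 5.81% (3.19 to 10.4%) against 10.7%. The exonic share rested on Polr2a, and without it was 12.3% in E14 (8.04 to 18.5%), 12.5% in A1 and 12.3% in C7. By gene, 7 of the 77 with a promoter cluster had an exonic cluster as well, 9.09% (4.47 to 17.6%), against 13.3% of all protein-coding genes.

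By role, none of the 26 core Mediator genes had an exonic or intronic cluster in any line, which as a count of 0 allows a share of up to 11.5% of genes (3 of 26). Among genes with a promoter cluster in E14, the share with an exonic or intronic cluster was 15.6% for all the genes described here (9.15 to 25.3%) and 21.1% for all protein-coding genes. The difference of core Mediator from either was not tested. Polymerase II genes had 16 exonic clusters in E14, the kinase module 9, TFIID 5 and the Taf genes outside TFIID 4. The general factors had 5 intronic clusters, in Gtf2a1, Gtf2e1, Gtf2e2 and Gtf2f2, and no exonic one. Coding sequence held the dominant TSS of 26 of the 34, and a 3′ UTR that of 8. All 15 exonic clusters of Polr2a lay in coding sequence, and the other genes had 19 exonic clusters in E14. This split was not compared with all protein-coding genes.

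**Figure D2:**
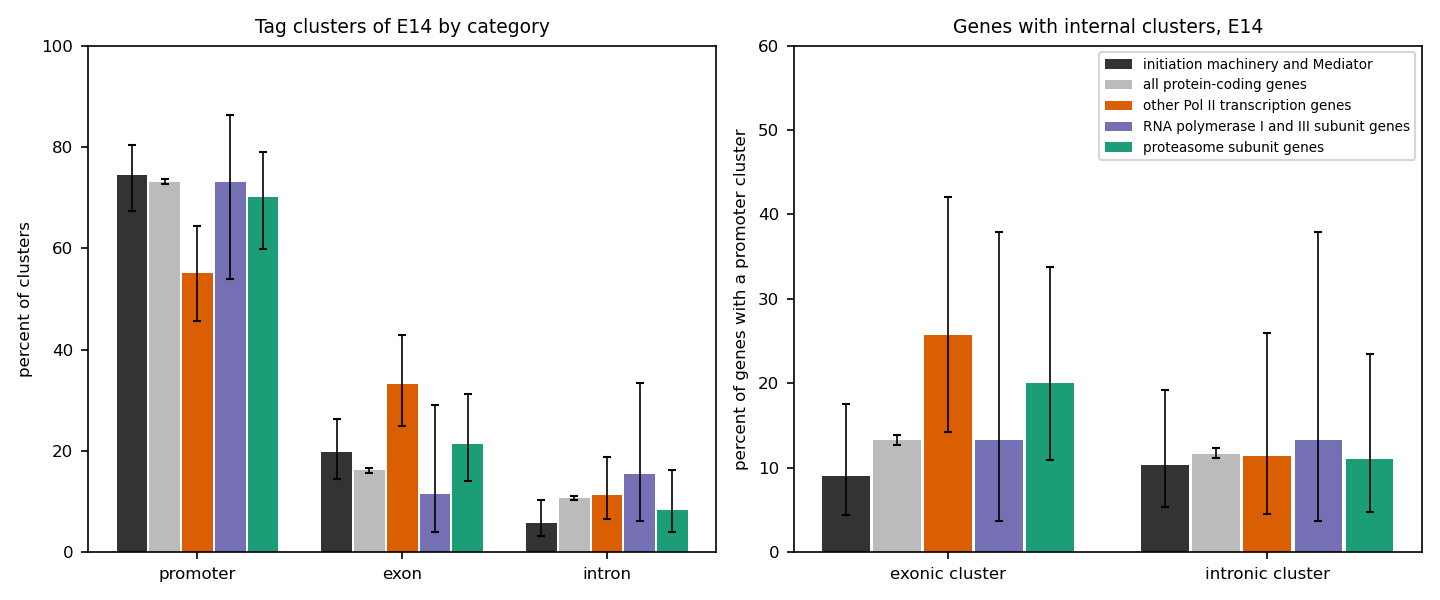
Left, percent of E14 clusters at annotated promoters, in exons and in introns, for the initiation machinery and Mediator genes and for comparison lists. Right, percent of genes with a promoter cluster that also have an exonic or intronic cluster, 9.09% and 10.4% for the initiation machinery and Mediator genes, with bars of 95% Wilson intervals that cover counting error only.

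Other lists of transcription and housekeeping genes were set beside these. The 36 other polymerase II genes, which include the differently named TFIIH, kinase module and elongation genes, had 105 clusters in E14, of which 55.2% (45.7 to 64.4%) were promoter and 33.3% (25 to 42.8%) exonic. For the initiation machinery and Mediator the promoter share was 74.4% (67.4 to 80.4%). Clusters of 1 gene share their source, so these intervals are too narrow. The share was 73.1% for the 15 polymerase I and III subunit genes and 70.2% for the 50 proteasome subunit genes. The median main promoter width was 40, 36 and 35 bp in these lists, against 32.0 bp for the genes described here.

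Polr2a held the most internal clusters, 15 exonic ones in each line. Of 21951 protein-coding genes, 30 had at least as many exonic clusters in E14, Polr2a included. Of the 15, 13 lay in the last of its 29 exons, within 862 bp from 69734643 to 69735504, and together they covered 351 bases. This exon encodes the C-terminal domain, the tail of repeated groups of 7 residues that kinases phosphorylate during transcription. In the coding sequence of 1970 codons, the longest run of tyrosine codons spaced 7 apart had 47 of them and spanned codons 1608 to 1936, from 69734515 to 69735501. In each line 12 of the 13 dominant TSSs lay inside this run, and the remaining one lay 1 codon before it. The run is a repeat of 21 bases. Per the study's methods, reads with a single place in the genome were kept, and how many positions of the repeat allow such a read was not tested.

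Examples from E14 show 30 bases of coding sequence, from 10 before the dominant TSS to 19 after it, minus strand of chromosome 11 in mm10, with the base before the TSS and the TSS in capitals. They were chosen, after the 13 had been seen, because the tyrosine codon (tat or tac) of the repeat lies at the TSS or within 2 bases of it. Other clusters of the exon share this and are not shown, and others do not.
Polr2a codon 1810, TSS 69734893: ccagcccacGAtatacaccacagtctccaa
Polr2a codon 1768, TSS 69735020: acctcacccAGttactcacctacaagtccc
Polr2a codon 1713, TSS 69735186: ttcaccaagCTattctcccacctcccccag
Polr2a codon 1678, TSS 69735291: ctctccaagCTattctccaacatcacctag
Polr2a codon 1664, TSS 69735331: ctccaagctATtccccaacctctcctagct

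Counting each 21-base repeat from the first base of its tyrosine codon, 9 of the 12 E14 dominant TSSs lay in the 8 bases from base 17 to base 3 of the next repeat. The count was 10 of 12 in A1 and 8 of 12 in C7. This stretch was chosen after the positions had been seen, and the lines share cluster bounds. The interquantile widths of the 13 clusters ran from 2 to 83 bp in E14, from 2 to 85 bp in A1 and from 3 to 84 bp in C7. All 13 clusters had the same first and last base in the 3 lines, yet the dominant TSS was the same in all lines at 4. A1 shared it with E14 at 9 and C7 at 6.

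**Figure D3:**
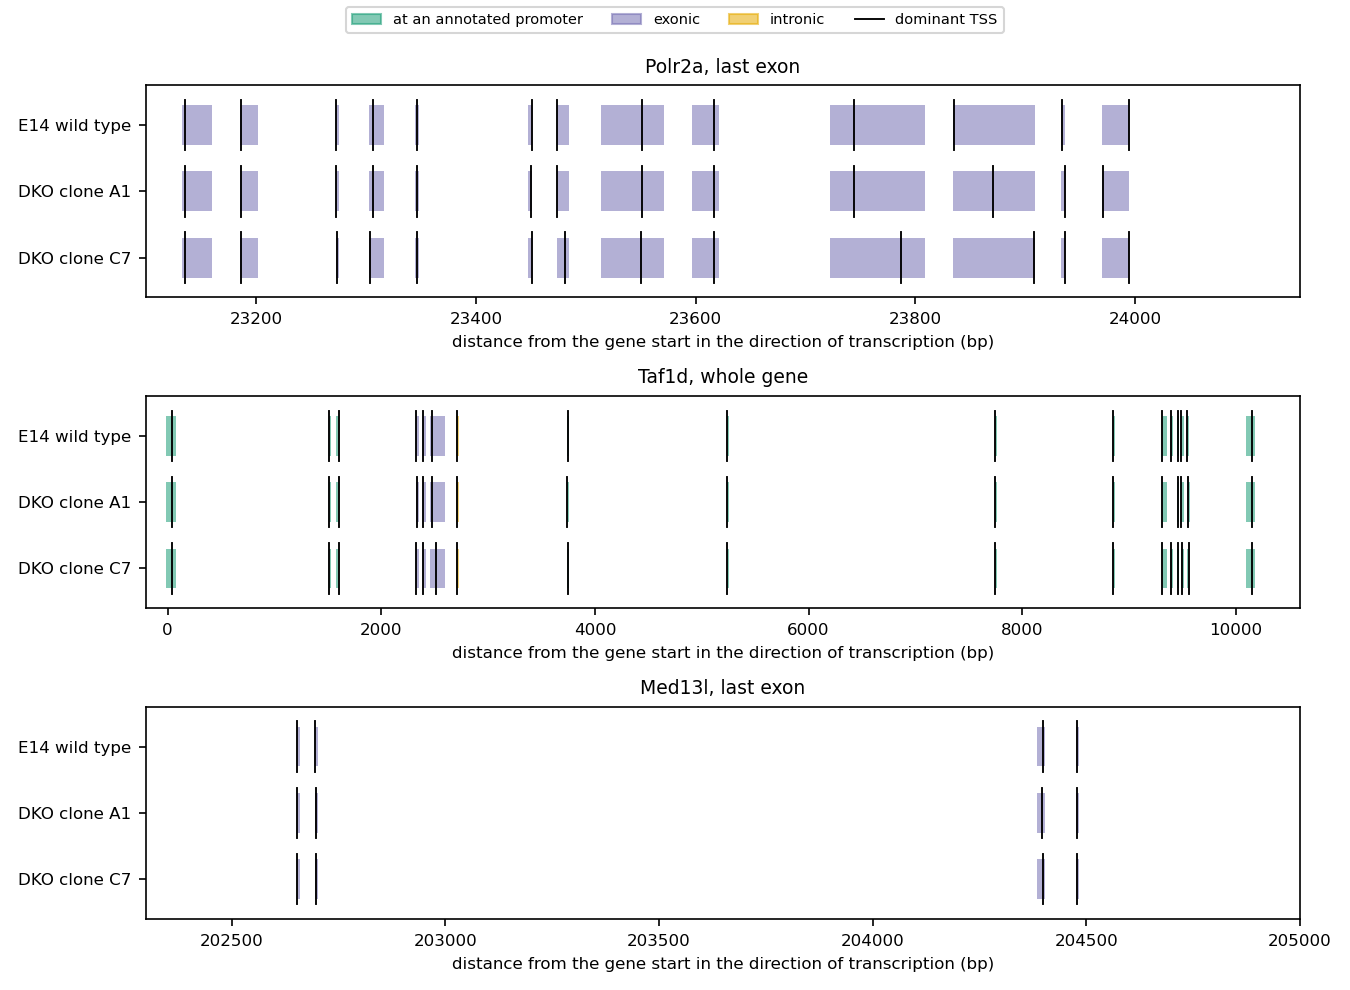
Tag clusters along the last exon of Polr2a, the whole of Taf1d and the last exon of Med13l in E14, A1 and C7, by distance from the gene start in bp. Coloured bars are clusters by category, widened to a visible minimum, and black lines are dominant TSSs, which differ between lines at 9 of the 13 clusters of the Polr2a exon.

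In the kinase module, Med13 and its paralog Med13l had exonic clusters. Med13l, on chromosome 5 from 118560679 to 118765438, had 6 exonic clusters and 1 intronic one in each line. Of the exonic clusters, 2 were in coding sequence, in exons 10 and 17 of 31, and 4 in the 3′ UTR. The 3 exonic clusters of Med13 were all in the 3′ UTR of its last exon, the 30th, from 86268577 to 86269891. They were present in A1 and C7 as well.

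Taf1d, a host gene of small nucleolar RNAs, lies on chromosome 9 from 15306214 to 15316991. It had 13 promoter clusters, 3 exonic and 1 intronic cluster in E14 and C7, and 12 promoter clusters in A1 with the same number of internal ones. Its first promoter cluster had its dominant TSS 46 bp inside the gene, and 8 others, from 7745 to 10147 bp into the gene, lay within 500 bp of the start of an annotated small RNA. The main promoter by the width rule was the last of these, 67 bp wide in E14, 66 bp in A1 and 67 bp in C7. The widest exonic cluster, from 15308670 to 15308809 in exon 3, was 120 bp wide between quantiles in E14, against 108 bp in A1 and 105 bp in C7.

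Taf3, whose product reads a histone mark of active promoters, lies on the minus strand of chromosome 2 from 9914552 to 10048596. It had 3 exonic clusters in each line, all within 1 exon of 2544 bases, with dominant TSSs at 9951277, 9951443 and 9951820 in E14. Taf15, on chromosome 11 from 83473086 to 83506743, had 1 exonic and 2 intronic clusters in E14 and C7 and 2 exonic and 1 intronic in A1. The difference was a single cluster, from 83504639 to 83504658. Its strongest base was 83504639 in E14 and C7 and 83504658 in A1, on the other side of a boundary between intron and exon. Taf1 had 2 exonic clusters, in exons 2 and 26 of 41, in every line.

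The base before the dominant TSS set exonic clusters apart from promoter clusters. The pyrimidine and purine pair was found at 2 of 34 exonic clusters, 5.88% (1.63 to 19.1%), and at 68.3% (59.6 to 76.0%) of the 120 promoter clusters with sequence. Over all protein-coding genes it was 9.23% and 74.8%. A G stood before the TSS at 20 of 34 exonic clusters, 58.8% (42.2 to 73.6%), against 15.8% at promoters, and at 73.4% of exonic clusters of all protein-coding genes. The last exon of Polr2a departed from this, with G at 3 of 13. Without it, G stood before the TSS at 17 of 21, 81.0% (60 to 92.3%). Examples from coding exons, in the same layout, were picked because G stands at least at the last 2 bases before the TSS. Other exonic clusters had a single G there, as 1 of Taf1d, or another base.
Med13l exon 10 (chr5:118728818-118728847, plus strand): ctgcaggggGAgaggtttgacactgccctg
Med13l exon 17 (chr5:118742059-118742088, plus strand): cagatcaggGGtcaccagcttccaccccct
Taf1 exon 26 (chrX:101562188-101562217, plus strand): atgaggaggGGaaggaatatgttcgttgtg
Taf3 (chr2:9951801-9951830, minus strand): gggtatgagGAgaaagccaagctgccttcg

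**Figure D4:**
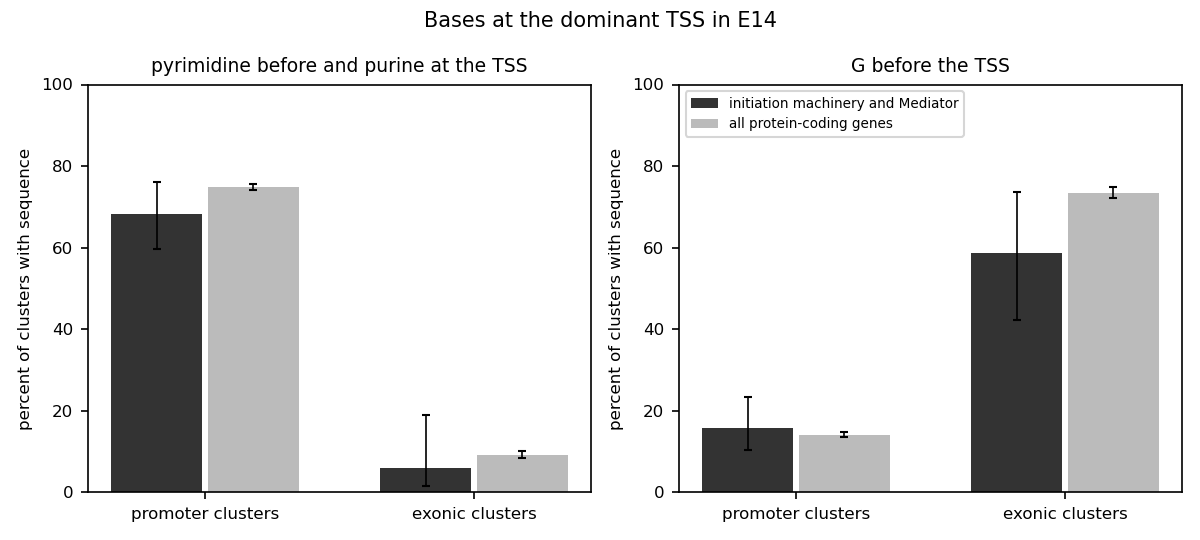
Percent of E14 clusters with a pyrimidine before and a purine at the dominant TSS (left) and with a G before it (right), for promoter and exonic clusters of the initiation machinery and Mediator genes and of all protein-coding genes, with 95% Wilson intervals. The pair is at 68.3% of promoter and 5.88% of exonic clusters of these genes, and G at 15.8% and 58.8%.

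Nearly all clusters of E14 were also present in the clones, for these genes as for protein-coding genes at large. All 172 E14 clusters of these genes were overlapped by a cluster in C7 and 170, or 98.8%, in A1, against 99.5% and 99.4% of the 25180 clusters of all protein-coding genes. No cluster was present in both clones and absent from E14, and none was present in E14 and absent from both, where all protein-coding genes had 86 (0.342% of the E14 number) and 45 (0.179%). With 172 clusters, shares of this size would leave less than 1 cluster, so these zeros do not set the genes apart. A cluster of E14 was missing from A1 at 2 of the 78 genes with a cluster, 2.56%, where 1.26% of protein-coding genes with a cluster lost one. One was an exonic cluster in the 3′ UTR of Polr2e, a subunit shared by the nuclear polymerases, from 80036298 to 80036299 on chromosome 10. The other was a Taf1d cluster at a small RNA start, from 15315607 to 15315608. Both were 2 bp long and present in C7. No gene lost a cluster in C7 (1.13% of protein-coding genes did) or gained one in A1 (1.60%) or C7 (1.37%).

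These counts are limited by how the clusters were drawn. Of the 172 E14 clusters, 168 (97.7%) had the same first and last base in all 3 lines, as had 97.3% of all E14 clusters. Per the study's methods, neighbouring clusters had been aggregated into consensus clusters across replicates. The sources used here do not say whether the 3 lines were drawn jointly. With nearly all bounds shared, presence in 1 line was not counted as independent of presence in another, and the reason for the shared bounds was not tested. Among clusters found in all lines, the dominant TSS was the same in the 3 lines at 78.7% of 127 promoter clusters (70.8 to 85.0%) and at 48.5% of 33 exonic clusters (32.5 to 64.8%). For all protein-coding genes the shares were 69.7% and 62.9%. The last exon of Polr2a held 13 of these 33 exonic clusters. At 4 of these 13 the dominant TSS was the same in all lines, so the low exonic share rested largely on this exon. The dominant TSS was the same at 4 of the 10 intronic clusters, against 58.4% of those of all protein-coding genes. The interquantile width was the same in the 3 lines at 44.1% of promoter clusters, 54.5% of exonic clusters and all 10 intronic clusters, against 48.9%, 76.5% and 78.8% for all protein-coding genes. In the last exon of Polr2a most of the 13 clusters differed in width between lines.

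The dominant TSS of the main promoter moved little. It was the same base in all 3 lines at 68 of 77 genes, 88.3%, against 72.7% of 11121 protein-coding genes followed in all lines. It differed from E14 at 6 genes in A1, 7.79%, where 19.5% of protein-coding genes differed. In C7 it differed at 6 genes as well, against a background of 17.4%. A shift of at least 10 bp was found at 3 genes in A1 (background 10.8%) and at 5 in C7 (background 9.64%). The same direction in both clones was found at 3 genes, 3.90%, against 8.59% of protein-coding genes. These are counts without a test.

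The 3 genes were Polr2i, Med16 and Med13l. At Polr2i, the gene of a small subunit that affects accuracy, on chromosome 7 from 30231948 to 30233390, the strongest base of the cluster was 30231923 in E14 and, 15 bp upstream of it, 30231908 in A1 and C7. At Med16, on the minus strand of chromosome 10 from 79894708 to 79908923, the strongest base was 79908921 in E14 and 10 bp upstream of it, 79908931, in both clones. At Med13l it was at 118560355 in E14, 4 bp downstream in A1 and 19 bp downstream in C7. The sequences of the first 2 are given on the strand of the gene in mm10, with the upstream base used in both clones and the downstream base used in E14 in capitals.
Polr2i (chr7:30231888-30231938, plus strand): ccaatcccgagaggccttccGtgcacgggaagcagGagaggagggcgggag
Med16 (chr10:79908906-79908951, minus strand): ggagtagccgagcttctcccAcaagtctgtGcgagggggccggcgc

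The other 6 genes moved in 1 clone only. In A1 these were Gtf2e2, by 13 bp upstream, Taf4, by 3 bp upstream, and Med15, by 1 bp upstream. In C7 they were Taf5, by 13 bp downstream, Taf4b, by 11 bp downstream, and Med20, by 7 bp upstream. Whether A1 and C7 differ at these genes was not tested.

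**Figure D5:**
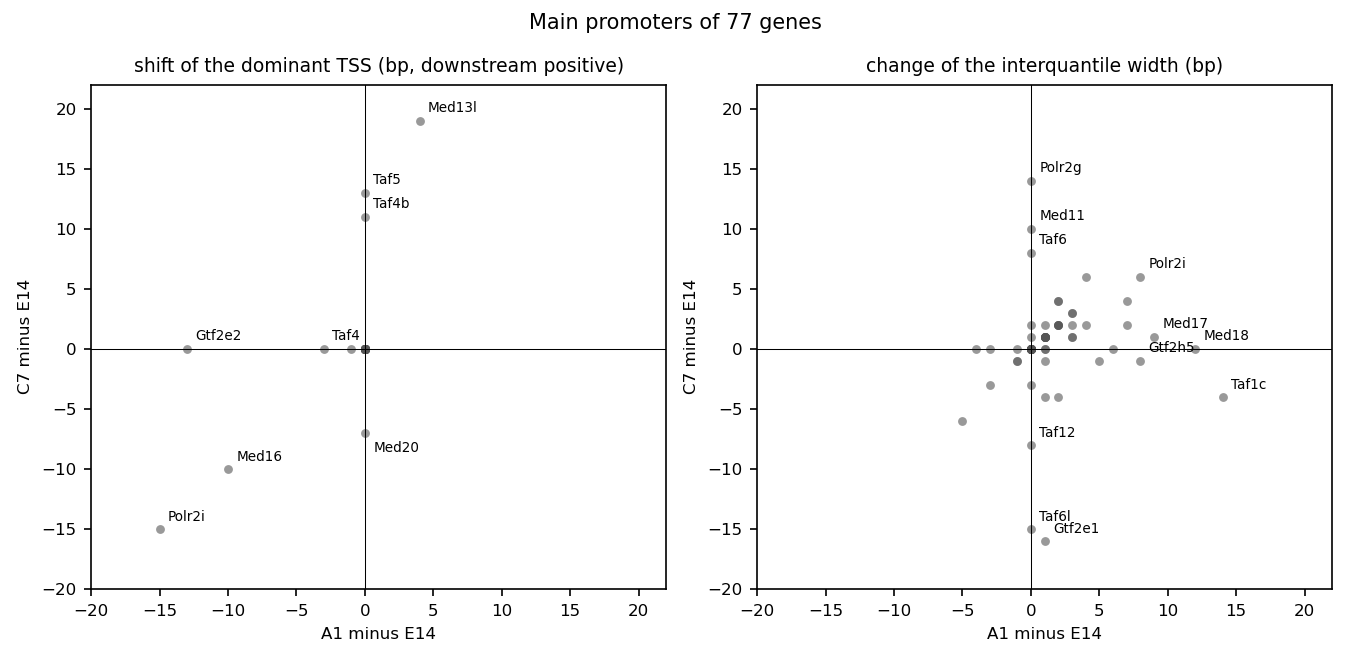
Change from E14 in A1 (horizontal axis) and C7 (vertical axis), in bp, of the dominant TSS (left, downstream positive) and of the interquantile width (right) at the main promoters of 77 genes. Most points lie at or near 0, Polr2i and Med16 moved upstream by the same distance in both clones, and Taf1c became wider in A1 and narrower in C7.

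Interquantile widths changed by a few bases. In A1, 37 of 77 main promoters were wider than in E14 by at least 1 bp and 7 narrower, and in C7 31 were wider and 14 narrower. For all protein-coding genes 33.3% were wider and 16.6% narrower in A1, and 31.1% and 16.6% in C7. The median change was 0 bp in both clones. A change of at least 2 bp in either direction was found at 27 genes in A1 (background 36.2%) and at 28 in C7 (background 34.0%), and one of at least 1.5 times at 3 in A1 (background 5.66%) and 3 in C7 (background 5.06%). At 2 genes, Taf1b and Taf1c, the clones changed in opposite directions by at least 2 bp each (background 3.20%). A widening of at least 5 bp was found at 9 genes in A1 (background 11.9%) and at 5 in C7 (background 10.8%). A narrowing of at least 5 bp was found at 1 gene in A1 (background 6.56%) and at 4 in C7 (background 6.12%).

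Only Polr2i widened by at least 5 bp in both clones, against 5.88% of protein-coding genes, and only Taf5 narrowed in both, against 2.38%. Polr2i measured 37 bp in E14, 45 bp in A1 and 43 bp in C7. Taf5, the gene of a TFIID scaffold subunit, measured 31 bp in E14, 26 bp in A1 and 25 bp in C7. The next same-way changes were at Med10, from 29 bp to 36 bp in A1 and 33 bp in C7, at Polr2c, from 22 bp to 26 and 28 bp, and at Polr2f, from 39 bp to 42 bp in both. Taf2, also wider by 3 bp in both clones, and Taf10, narrower by 3 bp in both, tied with Polr2f. At most other genes the clones lay within 4 bp of E14. The larger changes were in 1 clone, among them Gtf2e1 and Taf6l, narrower in C7 by 16 and 15 bp, Polr2g, wider in C7 by 14 bp, and Med18, wider in A1 by 12 bp.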

How the data were processed

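The authors mapped CAGE-seq reads to mm10 and called tag clusters with CAGEr, with replicates of a line merged, and deposited them as positions with no expression value. The submitters' processing notes name STAR 2.4.2a, SAMtools 1.3 and bedtools 2.17.0. The deposited unit used here is the position of a cluster, its dominant TSS and its blocks. No columns of other samples were present.

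Clusters were assigned with Python 3.11.15, NumPy 2.4.6, SciPy 1.17.1 and GENCODE release M21 to a gene when the dominant TSS lay on its strand from 500 bp upstream of its start to its end. Lines were compared by overlap of at least 1 bp. Wilson intervals were computed for shares, and no significance test was possible with 1 merged set per line. The functions were tested on simulated clusters and recovered 1000 of 1000 categories and 1000 of 1000 matches. RefSeq and GENCODE gave the same base at all 115447537 bases that were covered more than once. The rule for the members uses symbols only, but the members and lists were chosen with earlier results of these data known. The genes named are Tbp, Polr2a, Gtf2b, Taf1, Med1 and Med12, genes without clusters, the 6 with the most internal clusters, the 5 widest and 5 narrowest main promoters, and the 5 largest same-way changes in both clones, with ties by name. Others named stand in counts of members and were chosen after their values were seen. Alternatives changed the promoter window, the transcripts used, the minimum width, the overlap rule and the main promoter.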

Additional observations from a re-analysis of the deposited data

Results flagged for a closer look

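The interquantile width of the main promoter moved in opposite directions in the clones by at least 2 bp at 2 of 77 genes. This share was below the 3.20% of 11121 protein-coding genes that did so. The genes were Taf1c and Taf1b, of the polymerase I factor SL1. For Taf1c the width was larger than in E14 by 14 bp in A1, and in C7 it fell by 4 bp. For Taf1b it was wider by 2 bp in A1, and in C7 it fell by 4 bp. The dominant TSS stayed at the same base in all lines at both genes. Other Taf genes acting with polymerase I did not show opposite changes. Taf1a was wider by 4 bp in A1 and by 2 bp in C7. Taf1d was narrower by 1 bp in A1 and unchanged in C7. With 1 merged set per line, the difference between the clones was not tested.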

How the results depend on the processing

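No paired analysis was possible because the cluster file used here holds 1 merged set per line. For the same reason no replicate could be left out, and files of single libraries were not used here. Under the alternative settings 117 values stayed within the limits set for a change (1.5 times for counts, the 95% interval for medians) and 18 went past them. With a promoter window of 100 bp E14 and C7 had 52 exonic clusters each. Requiring an interquantile width of at least 3 bp left 22 exonic clusters in E14. It left 6 intronic clusters in E14 and C7 and 5 in A1. Under this limit 2 clusters were in both clones and not E14, against 0 without it. These 2 overlapped E14 clusters narrower than the limit. When a cluster had to share its dominant TSS, 8 clusters were in both clones and not E14 and 18 in E14 and neither clone. For A1 alone 2 E14 clusters were missing. Over the first to last base of the cluster the median main promoter width was 65.0 bp in each line. A shift of at least 10 bp left 3 genes in A1. Width changes of at least 2 bp were found at 27 genes in A1 and 28 in C7 (36.2% and 34.0% of protein-coding genes), and of at least 1.5 times at 3 in A1 and 3 in C7 (5.66% and 5.06%). Read depth per line and expression were not used, so a cluster missing from 1 line cannot be told apart from one below the detection limit.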
